A study of Mus musculus with 39 samples.

Results

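ISRIB was compared with saline in macrophages sorted from the fibrotic lungs of old mice. The comparison rests on 10 of the 39 RNA sequencing libraries of the study, chosen by their labels alone: 5 from old mice given ISRIB and 5 from old mice given saline. All 10 came from C57BL/6J mice that had received bleomycin, which is widely used to induce pulmonary fibrosis in rodents. The cells are labelled as alveolar macrophages with low Siglec F, a surface receptor that resident alveolar macrophages carry at a high level, and the series text calls them derived from monocytes. The labels put the age of the mice above 18 months, and the series text gives a range of 18 to 24 months. Injections of ISRIB or of its vehicle, called saline in the labels, went into the peritoneum every day from day 7, and the cells were taken on day 21 after bleomycin. The control mice therefore had bleomycin and daily injections too, and no macrophage library came from an uninjured lung. Young mice under the same scheme, labelled as 8 to 12 weeks old and given as 3 to 5 months in the series text, provided 5 saline and 4 ISRIB macrophage libraries for the comparison of ages. The labels do not say whether the replicates of a group were separate animals, so p-values below measure the spread between these libraries, part of which may be technical.

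Cells under stress phosphorylate the translation factor eIF2. Phosphorylated eIF2 blocks its own exchange factor, eIF2B, which lowers protein synthesis while the transcription factor ATF4 is translated more. ISRIB is a small molecule that binds and stabilises eIF2B, so that translation goes on although eIF2 is phosphorylated. In an injured lung, monocytes enter the air spaces and become macrophages that start with little Siglec F and gain the transcripts of resident alveolar macrophages as they mature. Such recruited cells are known in lung fibrosis for making matrix proteins, proteases and growth factors that act on fibroblasts. The comparison asks whether the drug, given while fibrosis develops, alters the transcripts of these cells in old animals.

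Library totals were 7565556 to 10633748 counts with saline and 7738711 to 9662591 with ISRIB. All 20 pairs of libraries of the same group differed by more than sampling noise, with a chi-square per degree of freedom of 7.13 to 26.3. The mitochondrial share of the counts was 1.37% to 1.67% with saline and 1.67% to 1.92% with ISRIB, and its part in the results was not tested. All 12 macrophage markers passed the expression filter, among them Adgre1 at 405 to 665 CPM (counts scaled to a common library size) with saline and 407 to 521 CPM with ISRIB, Mertk at 401 to 603 and 432 to 557 CPM, and Cd68 at 1011 to 1290 and 1061 to 1274 CPM. Markers of other cells were low or of mixed origin. Summed over its list, the B cell level was 175 to 223 CPM with saline and 214 to 275 CPM with ISRIB, of which Cd22 alone made up 159 to 213 and 177 to 251 CPM, while Cd79a stayed at 8.96 CPM or less. Immunoglobulin chains summed to 20.7 to 411 and 152 to 590 CPM, T and NK cell genes to 11.3 to 32.3 and 20.1 to 46.8 CPM, dendritic cell genes to 21.9 to 35.1 and 30.6 to 42.5 CPM, and epithelial genes to 77.7 to 106 and 89.2 to 132 CPM. Neutrophil genes summed to 87.1 to 138 and 121 to 156 CPM with Ly6g and Ngp at 0 in all 10 libraries. Endothelial genes summed to 163 to 223 and 184 to 223 CPM, mostly Vwf, and interstitial macrophage genes to 102 to 218 and 67.9 to 214 CPM. Fibroblast genes were at 13.9 to 30.5 and 11.4 to 49.4 CPM with Lum at 0. Mesothelial genes were at 18.6 to 194 and 74.1 to 182 CPM, nearly all Krt19, with Upk3b and Wt1 at 0. Cdh1 made up 25.4 to 56.9 and 38.4 to 76.0 CPM of the epithelial sum. Krt19 and Cdh1 are also on the mature alveolar macrophage list below, so these sums are not separate from that list. Eosinophil, basophil and mast cell genes reached at most 3.46 CPM, with Epx, Il5ra and Mcpt8 at 0. Red blood cell genes reached at most 4.68 CPM. The summed levels of B cell, immunoglobulin, T and NK cell, neutrophil, dendritic cell, epithelial and mesothelial genes had higher medians with ISRIB, and Krt19 was highest in saline replicate 3 at 194 CPM. Their part in the results was not tested. In bulk samples such as these, fewer cells of a type and less RNA per cell cannot be told apart.

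No gene passed the test. With edgeR's quasi-likelihood test over 12171 genes, 0 genes (0%) had a Benjamini-Hochberg adjusted p under 0.05, the lowest being 0.139. The unadjusted p was below 0.05 in 1112 genes (9.14%), of which 486 (3.99%) had a higher mean with ISRIB and 626 (5.14%) a lower one. Scaling by library totals instead of TMM factors turned that split to 590 higher and 497 lower. In 151 genes (1.24%) the 5 ISRIB libraries and the 5 saline libraries did not overlap, 76 (0.624%) higher and 75 (0.616%) lower with ISRIB. The median log2 fold change of all genes was 0.00. Gene groups are described below by how many members lay under that unadjusted threshold, beside these background shares, and no member of any list was called by edgeR. DESeq2 called 43 genes (0.353%), 17 higher and 26 lower, and left 9203 genes without an adjusted p, whereas limma voom called 0 and had 1188 genes below the unadjusted threshold. Without a filter on low counts edgeR called 220 of 22729 genes (0.968%), and with all 39 libraries in the fit 1 of 13587 (0.00736%). In a fit of the 10 old libraries alone it called 0 of 11440 genes, and 109 (0.953%) with the replicate number added as a block.

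The saline libraries were not alike. Saline replicates 1, 2 and 4 lay at -32.3, -35.7 and -42.8 on the first principal component of the 10 libraries, which held 25.7% of the variance, whereas saline replicates 3 and 5 lay at 18.7 and 10.5. ISRIB replicates 1 to 5 lay at 13.1, 28.99, 29.2, -3.3 and 13.6. So 2 saline libraries lay among the ISRIB libraries, and the lowest ISRIB library, replicate 4, was still above the other 3 saline libraries. The group means were -16.3 ± 28.6 (SD, n = 5) with saline and 16.3 ± 13.5 (SD, n = 5) with ISRIB, a difference of 32.6 that did not pass a two-sided exact permutation test (p = 0.0794, where 0.00794 is the smallest that 5 against 5 allows). Without saline replicate 3 the difference was 41.9 and the exact permutation p was 0.0238, and leaving out any other single library gave p values of 0.0556 to 0.127. Saline replicate 3 was also the library most correlated with each of the 5 ISRIB libraries, and its own nearest library was ISRIB replicate 2. It was the deepest of the 10, at 10633748 counts and 16618 genes with a count, and whether depth has a part in its position was not tested.

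**Figure D1:**
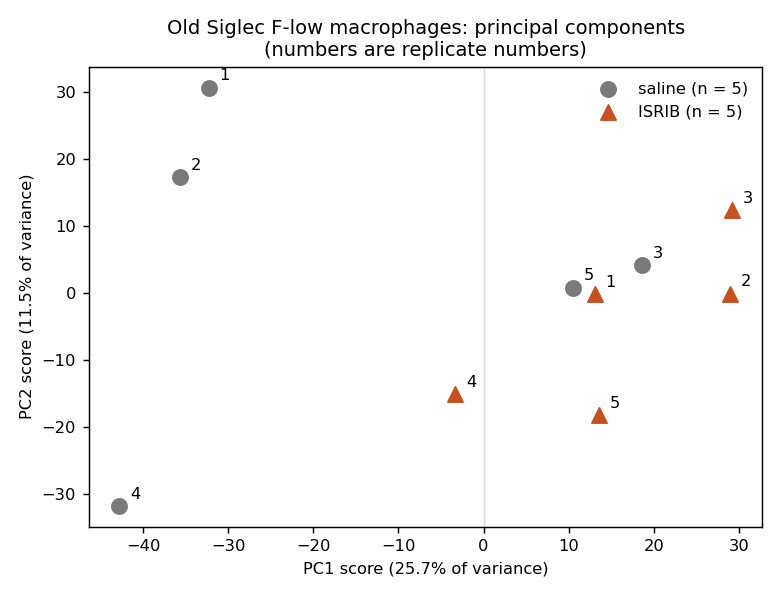
Scores of the 10 old macrophage libraries on the first and second principal components (PC1 and PC2, in score units, with their share of the variance on the axes), 1 point per library labelled with its replicate number. Saline replicates 3 and 5 sit at 18.7 and 10.5 on PC1 among the ISRIB libraries, and saline replicates 1, 2 and 4 sit at -32.3 or below.

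Single libraries decided how many genes passed. The count was 30 genes (0.248%) without saline replicate 3, of which 13 were higher and 17 lower with ISRIB. It was 16 (0.132%) without saline replicate 5, of which 3 were higher and 13 lower. Without ISRIB replicate 1 it called 1 gene (0.00827%), Arl4c, which encodes a small GTPase and was lower with ISRIB, at a log2 fold change of -0.64. Leaving out each of the other 7 libraries gave 0 calls and 746 to 1210 genes below the unadjusted threshold. The lowest adjusted p by edgeR was then 0.0702 (without ISRIB replicate 4) to 0.390 (without saline replicate 2). Saline replicates 3 and 5 were the controls that lay among the ISRIB libraries on the first principal component, so results without either one leave out a control near the treated libraries. Thbs1, H2-Eb1, H2-Ab1, H2-Aa, Cd74, Kifc3 and Hivep3 passed both without saline replicate 3 and without saline replicate 5. Over all 21 alternatives, by edgeR, DESeq2 or limma voom, adjusted p values reached 0.471 for Thbs1 and 0.658 for H2-Eb1.

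The MHC class II genes were lower with ISRIB. These genes encode the molecules that present peptides to CD4 T cells, the chaperone Cd74 that fills their groove, and Ciita, the coactivator that turns the whole group on. Of 10 members tested, 6 lay under the unadjusted threshold, all lower with ISRIB (60%, against 5.14% of all genes), and the median log2 fold change was -0.58 against 0.00 over all genes. H2-Eb1 (ENSMUSG00000060586, chromosome 17, 34305867 to 34316674, protein coding), the beta chain of I-E, was at 1328, 1110.2, 822, 1309.5 and 695 CPM with saline and at 573, 506, 493, 726 and 508 CPM with ISRIB. All but 1 ISRIB library were below every saline library, and the groups met where saline replicate 5 lay under ISRIB replicate 4. Its log2 fold change was -0.91 ± 0.18 (SE), with an adjusted p of 0.139 by edgeR.

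C57BL/6 mice lack the alpha chain of I-E, so that their cell surface class II molecule is I-A, made by H2-Aa and H2-Ab1. H2-Ab1 averaged 1389 ± 395 CPM with saline and 752 ± 150.4 CPM with ISRIB (SD, n = 5 each), a log2 fold change of -0.88 ± 0.19 (SE). H2-Aa averaged 1419 ± 427 CPM with saline and 819.6 ± 139 CPM with ISRIB, at -0.79 ± 0.19. Cd74 was at 6349, 4645, 3935, 6125 and 3383 CPM with saline and at 2909, 2626, 2610.2, 3833 and 2507 CPM with ISRIB, at -0.75 ± 0.17. In each of these genes saline replicates 3 and 5 were the lowest controls and ISRIB replicate 4 was the highest treated library. Ciita was at 81.4, 61.5, 57.1, 71.2 and 45.5 CPM with saline and at 28.7, 43.4, 39.1, 38.8 and 23.6 CPM with ISRIB, without overlap, and its log2 fold change was -0.87 ± 0.21 (SE; adjusted p = 0.158 by edgeR). H2-DMb2, H2-Oa and H2-Ob, named after their values were seen, had log2 fold changes above 0 (0.15, 0.12 and 0.44), none under the unadjusted threshold. Without saline replicate 3 edgeR called 4 members of the group and without saline replicate 5 it called 5. DESeq2 on the 19 macrophage libraries called 5, among them H2-Eb1, H2-Ab1, Cd74 and H2-Aa at adjusted p values of 0.0112, 0.0281, 0.0291 and 0.0427. B cells and dendritic cells also make these genes. The part of such cells, whose marker levels are given above, was not tested.

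The upstream sequences of H2-Eb1 and H2-Aa are shown because the 2 genes moved together and both hold the letters CCAAT on either strand. Each is the 250 bases before the RefSeq transcript start in GRCm38.p6, read 5' to 3' on the strand of the gene, with capitals for matches to the X box (an 11-base pattern bound by the RFX complex), the CCAAT box (CCAAT) and, in H2-Aa, the core of the cyclic AMP response element (TGACG), searched on both strands. These 3 patterns were chosen after the values were seen. H2-Eb1 lies at chr17:34305617-34305866 on the plus strand and H2-Aa at chr17:34287824-34288073 on the minus strand.
H2-Eb1: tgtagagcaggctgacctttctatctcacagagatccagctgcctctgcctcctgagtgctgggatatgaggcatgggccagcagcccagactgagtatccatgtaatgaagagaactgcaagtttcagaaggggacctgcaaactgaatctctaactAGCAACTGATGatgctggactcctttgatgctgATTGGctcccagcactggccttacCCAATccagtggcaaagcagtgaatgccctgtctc
H2-Aa: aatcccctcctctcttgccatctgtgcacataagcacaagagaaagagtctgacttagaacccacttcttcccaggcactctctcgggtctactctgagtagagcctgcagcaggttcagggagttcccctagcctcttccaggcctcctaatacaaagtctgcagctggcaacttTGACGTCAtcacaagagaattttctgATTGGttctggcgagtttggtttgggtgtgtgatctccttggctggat
In H2-Eb1 the X box match began 92 bases before the start, followed by CCAAT matches at 59 and 35 bases. H2-Aa had a CCAAT match 48 bases before its start, overlapping CRE core matches at 74 and 71 bases, and no X box match. Of the 7 class II genes with a promoter in the table, 3 held an X box match and 7 a CCAAT match, against 0.958% and 37.5% of all 27025 genes with a promoter there. Those 7 genes include H2-DMb2, H2-Oa and H2-Ob, whose log2 fold changes were above 0, and lack H2-Ab1, Cd74 and Ciita. So the letters do not separate the genes that were lower. A match describes letters and shows no binding.

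Markers of mature alveolar macrophages were higher with ISRIB. Of 31 members tested, 16 lay under the unadjusted threshold with a higher mean (51.6%, against 3.99% of all genes) and 1, the oxidised LDL receptor Olr1 at a log2 fold change of -0.30, with a lower one, and the median log2 fold change was 0.31. Siglecf (ENSMUSG00000039013, chromosome 7, 43351341 to 43359531), which encodes the receptor the sort selected on, was at 55.4, 83.1, 117, 54.2 and 103 CPM with saline and at 99.7, 113, 152, 124 and 139.7 CPM with ISRIB. Saline replicates 3 and 5 reached the ISRIB range and the other 3 saline libraries were below it. The log2 fold change was 0.60 ± 0.16 (SE; adjusted p = 0.238 by edgeR). Without saline replicate 3 it was 0.76 with an adjusted p of 0.0440 by edgeR, and DESeq2 on the 19 macrophage libraries gave 0.60 with an adjusted p of 0.0337. Over the 21 alternatives, by edgeR, DESeq2 or limma voom, its adjusted p reached 0.673.

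Marco, a scavenger receptor for inhaled particles and bacteria, was at 18.2, 22.6, 32.4, 26.5 and 55.7 CPM with saline and at 47.96, 116, 127, 55.6 and 87.4 CPM with ISRIB, a log2 fold change of 1.48 ± 0.41 (SE). The groups overlapped only through saline replicate 5. Ear1 and Ear2, which encode ribonucleases of the eosinophil-associated family, were higher by 1.1 ± 0.29 and 0.48 ± 0.14, but the genes of this family are near-identical and reads could have been split among them. Mrc1, the mannose receptor, averaged 1371 ± 239 CPM with saline and 1769 ± 239 CPM with ISRIB (SD, n = 5 each). Ccl6, a chemokine of resident macrophages, averaged 4324 ± 842 CPM with saline and 5888 ± 1265 CPM with ISRIB. Nceh1, a cholesteryl ester hydrolase, and Abcg1, a cholesterol exporter, were higher by 0.31 ± 0.09 and 0.34 ± 0.14 on the log2 scale. Pparg, the nuclear receptor that directs alveolar macrophage identity, and Fabp1, a fatty acid binding protein, were higher by 0.25 and 1.09. In the fit of the 19 macrophage libraries edgeR called none of these markers, and without saline replicate 3 it called Siglecf and Ear1. DESeq2 called 4 of the 31, Siglecf, Ear2, Ccl6 and Nceh1, at adjusted p values of 0.0337 to 0.0478. Averaged over the 31 genes as the deviation of log2 CPM from the 10-library mean, saline replicates 1, 2 and 4 were at -0.45, -0.46 and -0.51 and saline replicates 3 and 5 at 0.17 and 0.10. ISRIB replicate 1 was at -0.10, ISRIB replicate 4 at 0.05 and ISRIB replicates 2, 3 and 5 at 0.34, 0.53 and 0.33. The saline replicates that lay among the ISRIB libraries on the first principal component were therefore also the saline replicates with the most of these transcripts, and all of these genes entered that component.

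**Figure D2:**
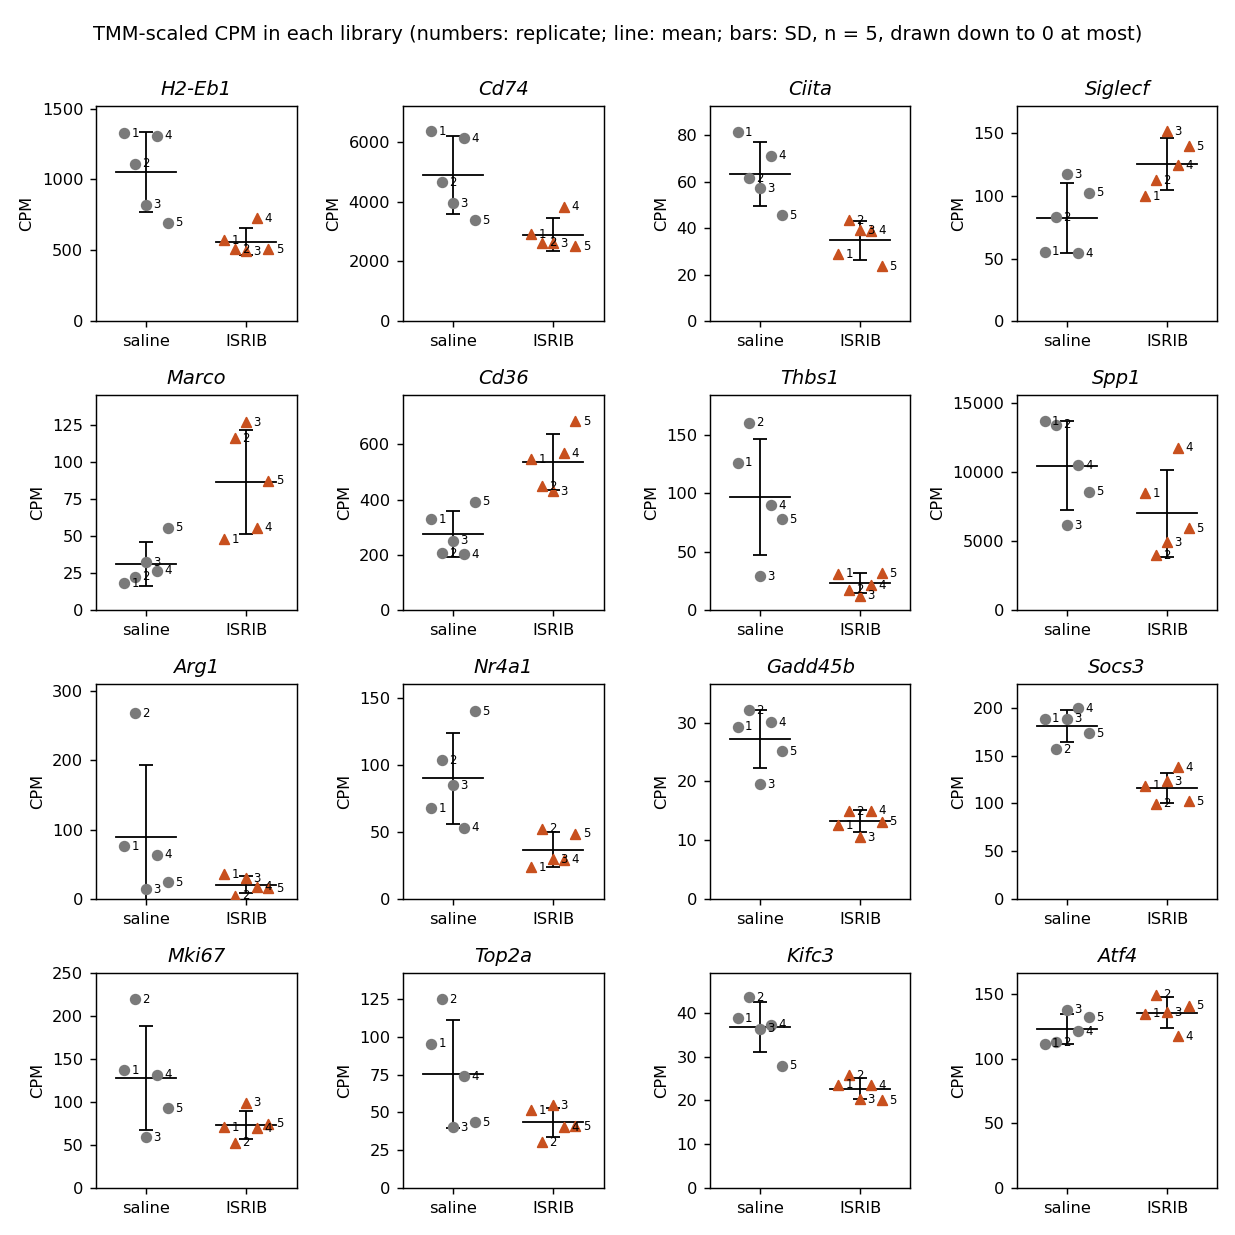
CPM after TMM scaling (vertical axes, from 0) of 16 genes in the 5 saline and 5 ISRIB libraries of old macrophages, each point a library with its replicate number, with mean and SD. Ciita, Cd36, Nr4a1, Gadd45b, Socs3 and Kifc3 do not overlap between the groups, and saline replicate 3 lies nearest to the ISRIB libraries in Thbs1 (28.98 CPM).

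Genes of the mixed profibrotic and Trem2 macrophage list went both ways. Of 43 profibrotic and Trem2 macrophage genes, 8 lay under the unadjusted threshold with a higher mean and 10 with a lower one (18.6% and 23.3%, against 3.99% and 5.14% of all genes), and the median was -0.11, or -0.04 without saline replicate 1 or ISRIB replicate 3 and -0.17 without ISRIB replicate 1. The count with a higher mean was 5 without saline replicate 2 and 5 without ISRIB replicate 5. Thbs1 (ENSMUSG00000040152, chromosome 2, 118111876 to 118127133), which encodes thrombospondin 1, a matrix protein that activates latent TGF-beta, was at 126, 160.1, 28.98, 89.5 and 77.7 CPM with saline and at 31.2, 17.3, 12.2, 21.4 and 31.8 CPM with ISRIB. Only saline replicate 3 lay in the ISRIB range. The log2 fold change was -2.08 ± 0.41 (SE; adjusted p = 0.139 by edgeR). It was -2.31 with an adjusted p of 0.0154 without saline replicate 3 and -2.15 with an adjusted p of 0.0400 without saline replicate 5.

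Spp1, which encodes osteopontin and is a hallmark of fibrosis-associated macrophages, was at 13676, 13406, 6139, 10480.1 and 8559.8 CPM with saline and at 8461, 3966, 4889, 11759.5 and 5929.6 CPM with ISRIB. The groups overlapped widely, and the log2 fold change was -0.58 ± 0.22 (SE; adjusted p = 0.455 by edgeR). Arg1, arginase 1 of alternative activation, was at 75.8, 268, 14.4, 63.8 and 23.96 CPM with saline and at 35.6, 4.69, 30.3, 17.5 and 15.1 CPM with ISRIB. Its log2 fold change was -2.09 ± 0.70, and -1.08 without saline replicate 2. Fn1, fibronectin, differed by -0.30 ± 0.13. Sparc, Mmp14, Timp1 and Areg, which act on matrix or epithelium, were lower, at -1.55, -0.90, -1.20 and -1.93, under the unadjusted threshold. In the other direction Cd36, a receptor for oxidised lipids and for thrombospondin 1, was at 328, 206, 250.4, 202 and 392 CPM with saline and at 547, 449, 429.8, 568 and 684 CPM with ISRIB, with no overlap. Its log2 fold change was 0.96 ± 0.20 (SE; adjusted p = 0.144 by edgeR). Plin2, a lipid droplet coat protein, and Chil3, a chitinase-like protein, were higher by 0.34 and 0.59. The 10 lower members under the unadjusted threshold were Thbs1, Spp1, Arg1, Fn1, Sparc, Mmp14, Timp1, Areg, Vegfa and Tgfb1 (-0.19). The 8 higher ones were Cd36, Mrc1, Plin2, Chil3, Clec10a, Lgals3, Ctsk and Cd9. Mrc1, Chil3 and Ctsk are also on the mature alveolar macrophage list.

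Trem2, a lipid-sensing receptor, averaged 434 ± 37.5 CPM with saline and 440.3 ± 79.6 CPM with ISRIB (SD, n = 5 each), a log2 fold change of 0.02 ± 0.13. Gpnmb, a glycoprotein of lipid-laden macrophages, differed by 0.20 ± 0.19 and Pdgfa, a fibroblast growth factor, by -0.02 ± 0.20. Mmp12, the macrophage elastase, averaged 823 ± 325 CPM with saline and 1144 ± 398 CPM with ISRIB, at 0.48 ± 0.24. None of these 4, which were among the core genes chosen to be named, lay under the unadjusted threshold, while Lgals3, Cd9, Ctsk and Plin2 of the same list did so with a higher mean.

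Inflammatory genes and NF-kB feedback genes were lower with ISRIB. NF-kB is the factor that drives cytokine genes, and it also induces its own inhibitors. Of 24 members tested, 11 lay under the unadjusted threshold, all lower (45.8%, against 5.14% of all genes), and the median was -0.32, or -0.21 without saline replicate 4. Socs3, an inhibitor of cytokine receptor signalling, was at 189, 157, 189, 199.9 and 173 CPM with saline and at 119, 99.7, 123, 138 and 102 CPM with ISRIB. No saline library reached the ISRIB range, saline replicates 3 and 5 included. The log2 fold change was -0.64 ± 0.14 (SE), and its adjusted p values were 0.144 by edgeR and 0.00595 by DESeq2. Osm and Lif, cytokines of the IL-6 family, were lower, at -0.81 ± 0.20 and -1.29 ± 0.31. Tnfaip3, the ubiquitin-editing inhibitor A20, was at 119, 167, 150.3, 206 and 243 CPM with saline and at 88.3, 113, 69.5, 124 and 133 CPM with ISRIB, at -0.75 ± 0.19. Ptgs2, the inducible cyclooxygenase, was at 8.86, 9.24, 7.64, 7.92 and 23.96 CPM with saline and at 0.612, 1.11, 1.21, 4.05 and 6.43 CPM with ISRIB, without overlap. Il1b averaged 148 ± 91.7 CPM with saline and 75.7 ± 16.3 CPM with ISRIB (SD, n = 5 each), its saline mean raised by saline replicate 2 at 310 CPM, and its log2 fold change of -0.97 was -0.51 without that library. Nfkbia, the NF-kB inhibitor that NF-kB induces, was lower, at -0.34. The mean deviation of the 24 genes was 0.00 to 0.48 in the saline libraries and -0.50 to -0.06 in the ISRIB libraries. This list and the MHC class II list (-0.0767 to 0.42 and -0.32 to -0.0809) were the 2 of 22 whose saline and ISRIB ranges were apart on this scale, the latter by a narrow margin.

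Immediate early genes, which cells switch on within minutes of a stimulus or of handling, were mixed. Of 22 members, 6 lay under the unadjusted threshold, all lower (27.3%, against 5.14% of all genes), and the median was -0.20. That median was -0.06 without saline replicate 3, -0.10 without saline replicate 5, -0.13 without ISRIB replicate 1 and -0.32 without saline replicate 4. Nr4a1 (ENSMUSG00000023034, chromosome 15, 101254269 to 101274795), an orphan nuclear receptor, was at 67.9, 103, 84.9, 53.1 and 140.3 CPM with saline and at 23.8, 52.5, 29.7, 29.3 and 48.6 CPM with ISRIB. Its relative Nr4a2 was at 20.1, 16.99, 17.4, 11.3 and 20.8 CPM with saline and at 2.45, 10.9, 4.24, 7.32 and 9.91 CPM with ISRIB. Neither gene overlapped between the groups, and the log2 fold changes were -1.30 ± 0.34 and -1.33 ± 0.32 (SE; adjusted p = 0.224 and 0.163 by edgeR). Atf3, Junb and Fosl2, members of the AP-1 family, were lower, at -0.74 ± 0.30, -0.47 ± 0.18 and -0.34 ± 0.12. Without saline replicate 5 that of Atf3 was -0.47, and without saline replicate 2 that of Fosl2 was -0.22. The list as a whole did not follow the treatment in every library, since its mean deviation was 0.59 and 0.55 in saline replicates 3 and 5 and -0.36 and -0.21 in saline replicates 4 and 2. Outside the list, Gadd45b, a stress-induced gene of the same kind, was at 29.3, 32.2, 19.5, 30.02 and 25.1 CPM with saline and at 12.6, 14.9, 10.5, 15.04 and 13.1 CPM with ISRIB. Its groups did not overlap (-1.04 ± 0.23, SE; adjusted p = 0.144 by edgeR), and without saline replicate 3 its adjusted p was 0.0440. Plk2, a stress-responsive kinase, was lower, at -0.73 ± 0.23, also without overlap.

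Nr4a1 and Plk2 are shown with their upstream sequences because both were lower in every ISRIB library than in every saline library and both hold the CRE core, the site of factors that carry immediate early responses. The windows are 250 bases before the RefSeq start on the gene's strand, at chr15:101266596-101266845 on the plus strand for Nr4a1 and chr13:110394794-110395043 on the plus strand for Plk2 (GRCm38.p6), with TGACG on either strand in capitals.
Nr4a1: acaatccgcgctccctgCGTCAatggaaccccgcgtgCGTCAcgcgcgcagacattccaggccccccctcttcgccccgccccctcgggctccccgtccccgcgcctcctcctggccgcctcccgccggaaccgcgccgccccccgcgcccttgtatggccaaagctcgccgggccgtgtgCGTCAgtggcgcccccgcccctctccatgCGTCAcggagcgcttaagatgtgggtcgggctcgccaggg
Plk2: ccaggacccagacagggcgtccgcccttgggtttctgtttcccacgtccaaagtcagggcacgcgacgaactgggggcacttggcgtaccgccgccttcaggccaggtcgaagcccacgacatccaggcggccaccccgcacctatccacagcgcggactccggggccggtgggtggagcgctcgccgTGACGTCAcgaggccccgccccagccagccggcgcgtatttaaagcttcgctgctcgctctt
Nr4a1 held 4 matches, the nearest 40 bases before the start, and Plk2 held 2 overlapping ones at 62 and 59 bases. Of the 18 immediate early genes with a promoter in the table, 10 held the CRE core, against 19.8% of all genes with a promoter there. Plk2 is outside that list, and the CRE core was chosen after the values were seen. The AP-1 patterns TGACTCA and TGAGTCA matched 0 of the 18, against 5.16% of all genes with a promoter there.

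Genes of cell division were lower with ISRIB as a list, but their counts depended on single libraries. All 33 mitosis and kinetochore genes had a log2 fold change below 0, with a median of -0.63 (-0.28 without saline replicate 2), and 12 lay under the unadjusted threshold (36.4%, against 5.14% of all genes). That count was 2 without saline replicate 2, 5 without ISRIB replicate 2, 7 without ISRIB replicate 5, 19 without saline replicate 5 and 24 without saline replicate 3, and 8 to 14 without any other library. Mki67, a marker of cycling cells, was at 137, 219, 58.8, 131 and 92.5 CPM with saline and at 70.4, 52.4, 98.7, 69.03 and 74.5 CPM with ISRIB. Top2a, the topoisomerase of dividing cells, was at 95.4, 125, 40.3, 74.1 and 43.7 CPM with saline and at 51.5, 30.4, 54.6, 40.4 and 40.7 CPM with ISRIB. The high values were those of saline replicates 1, 2 and 4, and in both genes saline replicate 3 was lower than 4 of the 5 ISRIB libraries. The log2 fold changes were -0.80 ± 0.29 and -0.79 ± 0.28 (SE; adjusted p = 0.412 and 0.396 by edgeR), that of Mki67 being -0.52 without saline replicate 2. Ndc80, which joins kinetochores to microtubules, and Cdca8, a subunit of the chromosomal passenger complex outside the list, were lower, at -1.24 ± 0.38 and -1.17 ± 0.32, both without overlap between the groups. Genes of DNA replication showed less, with 2 of 39 under the threshold (5.13%, near the background of 5.14%), Uhrf1 and Rfc5, and a median of -0.21 (-0.09 without saline replicate 2). That count was 5 without saline replicate 3 or 5, 6 without ISRIB replicate 1, 1 without saline replicate 1, saline replicate 2 or ISRIB replicate 3, and 0 without ISRIB replicate 2.

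Promoters of 2 mitosis genes are shown for the letters that this class shares. They are the 250 bases before the RefSeq start on the gene's strand, at chr4:118437344-118437593 on the minus strand for Cdc20, the activator of the anaphase-promoting complex, and chr11:99024190-99024439 on the minus strand for Top2a (GRCm38.p6). Capitals mark the CCAAT box and the cell cycle homology region (CHR, TTTGAA) on either strand, patterns chosen after the values were seen.
Cdc20: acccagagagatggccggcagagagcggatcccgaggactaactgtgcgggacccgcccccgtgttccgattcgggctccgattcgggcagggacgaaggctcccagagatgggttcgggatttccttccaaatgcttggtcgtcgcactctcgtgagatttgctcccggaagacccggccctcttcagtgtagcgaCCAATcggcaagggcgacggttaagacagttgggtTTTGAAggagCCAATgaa
Top2a: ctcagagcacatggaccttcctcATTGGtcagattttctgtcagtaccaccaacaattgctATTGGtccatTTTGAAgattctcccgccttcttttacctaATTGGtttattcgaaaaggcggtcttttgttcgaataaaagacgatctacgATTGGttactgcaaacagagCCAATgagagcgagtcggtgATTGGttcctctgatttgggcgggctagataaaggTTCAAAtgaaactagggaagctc
Cdc20 held CCAAT matches at 53 and 8 bases before the start and a CHR match at 18 bases, and Top2a held 6 and 2 matches. Among 28 mitosis genes with a promoter in the table, 21 held a CCAAT match and 11 a CHR match, against 37.5% and 18.3% of all genes with a promoter there.

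**Figure D3:**
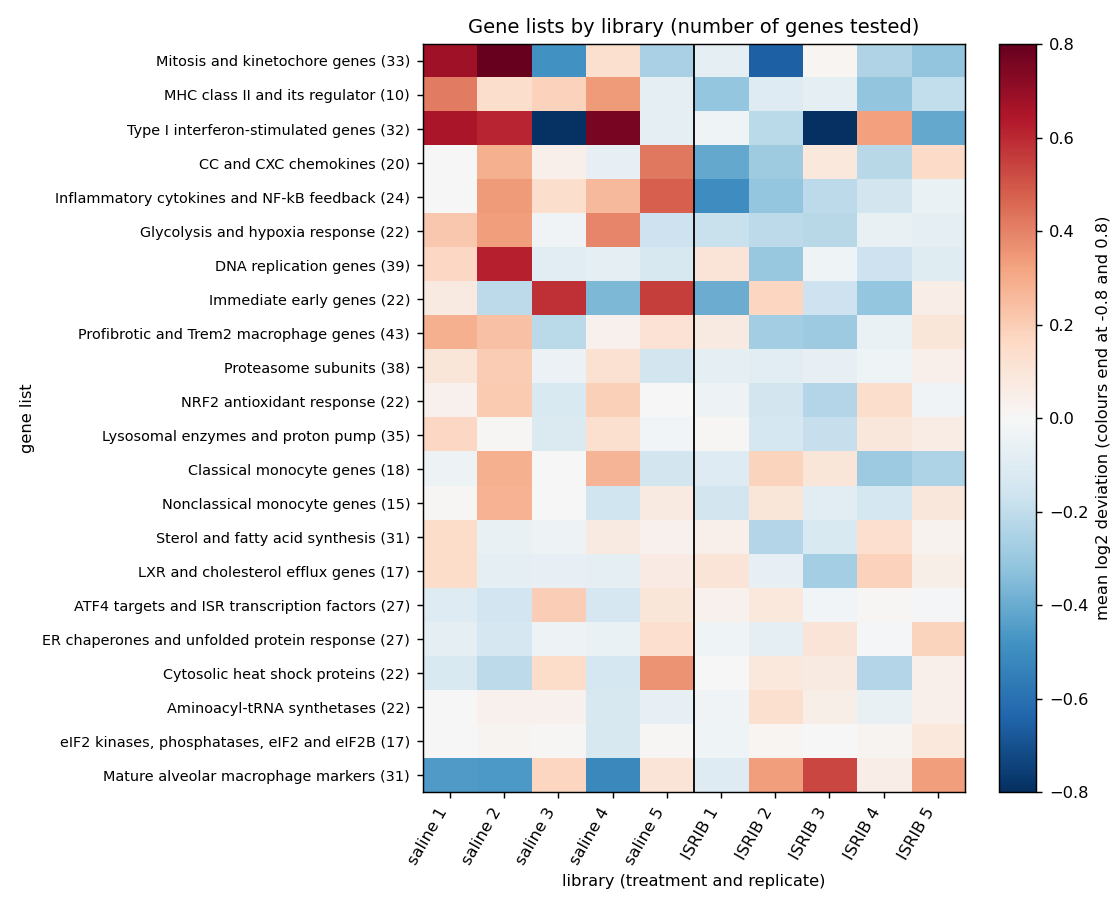
Mean deviation of log2 CPM from the 10-library mean (colour scale in log2 units) for 22 gene lists in each of the 10 old macrophage libraries, with the number of genes tested in brackets. Mitosis genes are high in saline replicates 1 and 2 (0.68 and 1.21) and low in saline replicate 3 (-0.48) and ISRIB replicate 2 (-0.65), while the inflammatory list is above 0 in all saline libraries and below 0 in all ISRIB libraries.

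Type I interferon-stimulated genes, the antiviral set, were lower with ISRIB in 31 of 32 members, Isg20 being the exception, with a median of -0.54 and 8 members under the unadjusted threshold (25%, against 5.14% of all genes). Its mean deviation was 0.65, 0.61, -0.79, 0.76 and -0.08 in saline replicates 1 to 5 and -0.04, -0.22, -0.82, 0.33 and -0.41 in ISRIB replicates 1 to 5. The count of 8 was 19 without saline replicate 3, 15 without ISRIB replicate 4, 4 without saline replicate 4 or ISRIB replicate 3, and 3 without saline replicate 1. Oas2, an oligoadenylate synthetase, was at 28.3, 29.99, 8.93, 26.3 and 12.1 CPM with saline and at 6.63, 11.9, 6.91, 11.4 and 5.09 CPM with ISRIB, at -1.33 ± 0.36 (SE; adjusted p = 0.229 by edgeR). Bst2, a membrane antiviral factor, differed by -0.53 ± 0.18.

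Among 20 CC and CXC chemokines the median was -0.50. Under the unadjusted threshold 3 were lower (15%, against 5.14% of all genes), namely Cxcl2, Cxcl9 and Cxcl14, at -0.84, -0.80 and -0.66. Ccl6 alone was higher (5%, near the 3.99% of all genes). The count of 3 was 6 without saline replicate 3 or ISRIB replicate 4 and 1 without ISRIB replicate 1. Cxcl2, a neutrophil attractant, was at 107, 153, 138, 141 and 264 CPM with saline and at 51.5, 97.9, 55.1, 112 and 135 CPM with ISRIB. In the glycolysis and hypoxia list 10 of 22 genes lay under the threshold, all lower (45.5%, against 5.14% of all genes), with a median of -0.21. Hk2, hexokinase 2, averaged 154 ± 22.9 CPM with saline and 122 ± 12.9 CPM with ISRIB, and Eno1, enolase, 356 ± 75.4 CPM with saline and 279 ± 13.8 CPM with ISRIB (SD, n = 5 each). Slc2a1, the glucose transporter, differed by -0.38 ± 0.13. Vegfa, the vascular growth factor that hypoxia and ATF4 both raise, was at 8.75, 7.64, 6.07, 7.64 and 8.19 CPM with saline and at 2.55, 3.46, 3.15, 3.27 and 5.76 CPM with ISRIB, at -1.08 ± 0.31 (SE; adjusted p = 0.265 by edgeR). The groups did not overlap, and at these levels the counting error is large.

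**Figure D4:**
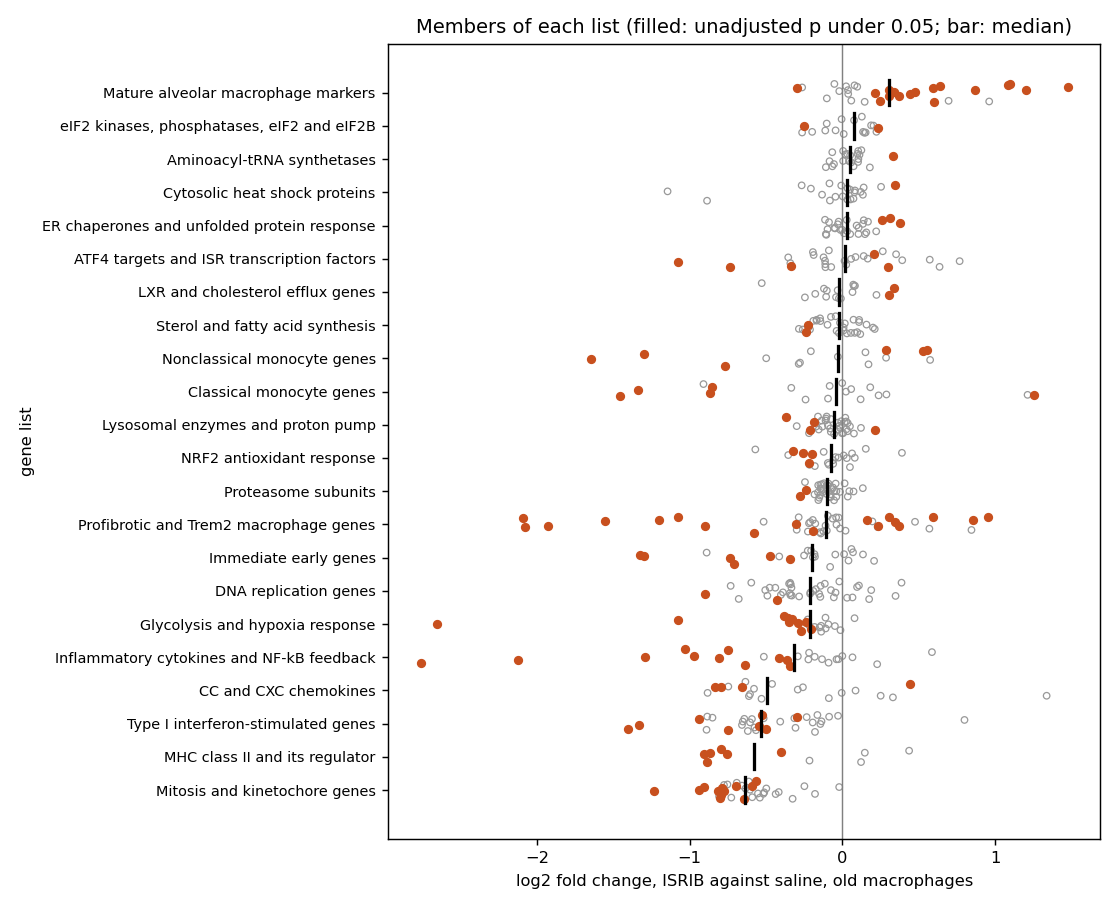
Log2 fold change of ISRIB against saline (horizontal axis) for each tested member of 22 gene lists in old macrophages, filled where the unadjusted p was under 0.05, with a bar at the median of each list. Mitosis genes lie wholly below 0, mature alveolar macrophage markers lie mostly above 0, and the lists of the integrated stress response centre at 0.01 (ATF4 targets) to 0.08 (eIF2 and eIF2B genes).

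Targets of the pathway that ISRIB acts on went both ways. Of 27 tested ATF4 targets and stress response factors, 2 were higher and 3 lower under the unadjusted threshold (7.41% and 11.1%, against 3.99% and 5.14% of all genes), with a median of 0.01 that ranged from -0.08 to 0.06 over the 21 alternatives. The count of higher genes was 0 without saline replicate 1, 2 or 4 or ISRIB replicate 1, 2 or 3, 1 without ISRIB replicate 5, and 4 without saline replicate 3. Atf4 itself was at 112, 113, 138, 121 and 132 CPM with saline and at 135, 149.7, 136, 118 and 141 CPM with ISRIB. The groups overlapped, with saline replicates 3, 4 and 5 in the ISRIB range, and the log2 fold change was 0.14 ± 0.11 (SE; adjusted p = 0.764 by edgeR). Atf4 is controlled mainly in translation, which RNA counts do not measure. Ddit3, the factor CHOP that ATF4 induces, averaged 11.8 ± 2.61 CPM with saline and 11.1 ± 2.62 CPM with ISRIB (SD, n = 5 each), at -0.07 ± 0.26. Ppp1r15a, the phosphatase subunit GADD34 that ends eIF2 phosphorylation, differed by -0.11 ± 0.18. Atf5, a related factor, was at 7.13, 7.87, 20.2, 12.1 and 16.5 CPM with saline and at 20.5, 18.4, 21.1, 13.99 and 25.6 CPM with ISRIB, at 0.64 ± 0.33. The 5 genes under the unadjusted threshold were Vegfa, Atf3 and Cebpb, lower, and Slc38a2, an amino acid transporter, and Cebpg, higher by 0.30 and 0.21. 

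Among 17 listed genes for eIF2 kinases, phosphatases, eIF2, eIF2B and related factors, 1 was higher and 1 lower under the unadjusted threshold. Each is 5.88%, against 3.99% and 5.14% of all genes, and the median was 0.08. Eif2a, higher by 0.23 ± 0.10, encodes eIF2A, an initiation factor that is not a subunit of eIF2. Eif2b5, the catalytic subunit of eIF2B, was lower, at -0.25 ± 0.11. Eif2s1, the eIF2 subunit that is phosphorylated, was not under the threshold. Leaving out single libraries gave 0 to 3 members in each direction. Eif2b5 was at 48.4, 49.6, 40.6, 43.9 and 34.3 CPM with saline and at 38.3, 34.8, 36.1, 36.9 and 35.9 CPM with ISRIB. Saline replicate 5 lay below every ISRIB library. Aminoacyl-tRNA synthetases, which charge amino acids and include ATF4 targets, had 1 of 22 members under the threshold, Cars, at 0.33 ± 0.14. That share, 4.55%, was near the 3.99% of all genes. Of 27 ER chaperone and unfolded protein response genes, 3 were higher under the threshold (11.1%, against 3.99%), namely Dnajb9, Xbp1 and Ero1lb at 0.38 ± 0.14, 0.26 ± 0.11 and 0.31 ± 0.14, while Hspa5, the main ER chaperone, differed by 0.11 ± 0.12. That count was 8 without saline replicate 5 and 1 without saline replicate 2 or ISRIB replicate 3. Of 22 cytosolic heat shock protein genes 1 lay under the threshold (4.55%, near the 3.99% of all genes). It was Hspa8, a constitutive chaperone, higher by 0.35 ± 0.11. EdgeR called none of these genes in the fit of the 19 macrophage libraries, and Hspa8 had an adjusted p of 0.0459 by edgeR with low counts left in.

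Genes of the monocytes from which the cells arise gave no common direction. Of 18 classical monocyte genes, 4 were lower under the unadjusted threshold (22.2%, against 5.14% of all genes: S100a4, Clec4e, Hp and Vcan), with a median of -0.04. The count of 4 was 2 without saline replicate 4. Ccr2, the receptor that brings classical monocytes into tissue, was at 157, 196, 71.8, 98.1 and 63.1 CPM with saline and at 144, 101, 93.2, 71.00 and 55.3 CPM with ISRIB, at -0.33 ± 0.26 (SE; adjusted p = 0.756 by edgeR). Saline replicates 1 and 2 lay above every ISRIB library and the other 3 saline libraries lay within the ISRIB range. S100a4, a calcium-binding protein, averaged 115 ± 45.1 CPM with saline and 63.6 ± 20.8 CPM with ISRIB (SD, n = 5 each), at -0.85 ± 0.24. Of 15 nonclassical monocyte genes 3 were lower (Adgre4, Nr4a1 and Ace) and 3 higher (Cd300ld, Spn and Treml4), with a median of -0.03. Each is 20%, against 5.14% of all genes lower and 3.99% higher. The count of higher genes was 1 without saline replicate 1 or 4. Adgre4, an adhesion receptor, was at 24.96, 49.4, 6.81, 70.9 and 13.6 CPM with saline and at 5.20, 13.8, 8.36, 15.95 and 9.38 CPM with ISRIB. Saline replicates 1, 2 and 4 were high and replicates 3 and 5 lay among the ISRIB libraries, and the log2 fold change was -1.65 ± 0.43 (SE; adjusted p = 0.216 by edgeR), or -1.91 with an adjusted p of 0.0440 without saline replicate 3.

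The smallest p of all belonged to Kifc3, a minus-end-directed kinesin, which was at 38.8, 43.6, 36.3, 37.3 and 27.96 CPM with saline and at 23.6, 25.7, 20.2, 23.5 and 20.1 CPM with ISRIB. The groups did not overlap, and the log2 fold change was -0.70 ± 0.13 (SE; adjusted p = 0.139 by edgeR). When all 39 libraries were fitted together edgeR called this gene alone, at an adjusted p of 0.0256. Hivep3, a zinc finger protein, and Lrp5, a Wnt coreceptor, were lower, at -0.79 ± 0.17 and -0.69 ± 0.16, and Galnt10, a mucin-type glycosyltransferase, and Rhbdf2, a regulator of TNF shedding, by -0.43 ± 0.10 and -0.39 ± 0.09. On the other side Txnip, an inhibitor of thioredoxin and of glucose uptake, was at 566, 452, 860.4, 617 and 683 CPM with saline and at 941, 912, 973, 833 and 901 CPM with ISRIB, higher by 0.52 ± 0.12. Only saline replicate 3 reached the ISRIB range. Nedd9, a focal adhesion scaffold, was higher by 0.40 ± 0.09 without overlap. The smallest adjusted p by DESeq2 was that of Hivep3, 0.00461, followed among the genes named here by Socs3 at 0.00595 and by H2-Eb1, Galnt10, Rhbdf2, Nedd9 and Txnip at 0.0112.

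ISRIB was set beside its effect in young macrophages to see which of these differences depend on age. The same fit gave 0 calls in young macrophages, where the unadjusted p was below 0.05 in 1513 genes (12.4%), 842 (6.92%) of them higher and 671 (5.51%) lower with ISRIB. The difference between the ages was itself tested and passed in 0 genes by edgeR, DESeq2 and limma voom. By edgeR 621 genes (5.1%) lay below the unadjusted threshold for it, and the lowest adjusted p was 0.717. MHC class II genes had similar values at both ages. H2-Eb1 was at -0.91 ± 0.18 in old and -0.80 ± 0.19 in young macrophages (SE), Cd74 at -0.75 ± 0.17 and -0.64 ± 0.18, and 0 of 10 members of the group lay under the unadjusted threshold for the difference. Mature alveolar macrophage markers had medians of 0.31 in old and 0.28 in young macrophages, Siglecf being at 0.60 ± 0.16 and 0.53 ± 0.18. Of these markers, 4 of 31 lay under the unadjusted threshold for the difference (against 5.1% of all genes). Mitosis genes had medians of -0.63 and -0.71, with 1 of 33 under that threshold. Marco was at 1.48 ± 0.41 in old and -0.90 ± 0.51 in young macrophages, a difference of 2.38 ± 0.65 (SE; adjusted p = 0.765 by edgeR).

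Lists of induced genes had medians further apart. Chemokines had medians of -0.50 in old and -0.13 in young macrophages, with 3 of 20 members under the unadjusted threshold for the difference. The inflammatory list had medians of -0.32 in old and 0.03 in young macrophages, with 7 of 24 members under the unadjusted threshold for the difference (against 5.1% of all genes). The immediate early list had medians of -0.20 and 0.09 with 10 of 22 members, none higher and 6 lower in old macrophages, 6 higher and none lower in young ones. Tnfaip3 had the smallest p of all genes for the difference, at -0.75 ± 0.19 in old and 0.61 ± 0.21 in young macrophages, a difference of -1.36 ± 0.28 (SE; adjusted p = 0.717 by edgeR). Cxcl2 was at -0.84 ± 0.34 and 0.93 ± 0.37, Atf3 at -0.74 ± 0.30 and 0.76 ± 0.32, and Gadd45b at -1.04 ± 0.23 and 0.15 ± 0.24. Ppp1r15a was at -0.11 ± 0.18 and 0.73 ± 0.20. Thbs1 was at -2.08 ± 0.41 and -0.52 ± 0.42, a difference of -1.55 ± 0.58 (SE; adjusted p = 0.954 by edgeR). No gene passed the adjusted threshold for the difference, so none of these effects was shown to depend on age.

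**Figure D5:**
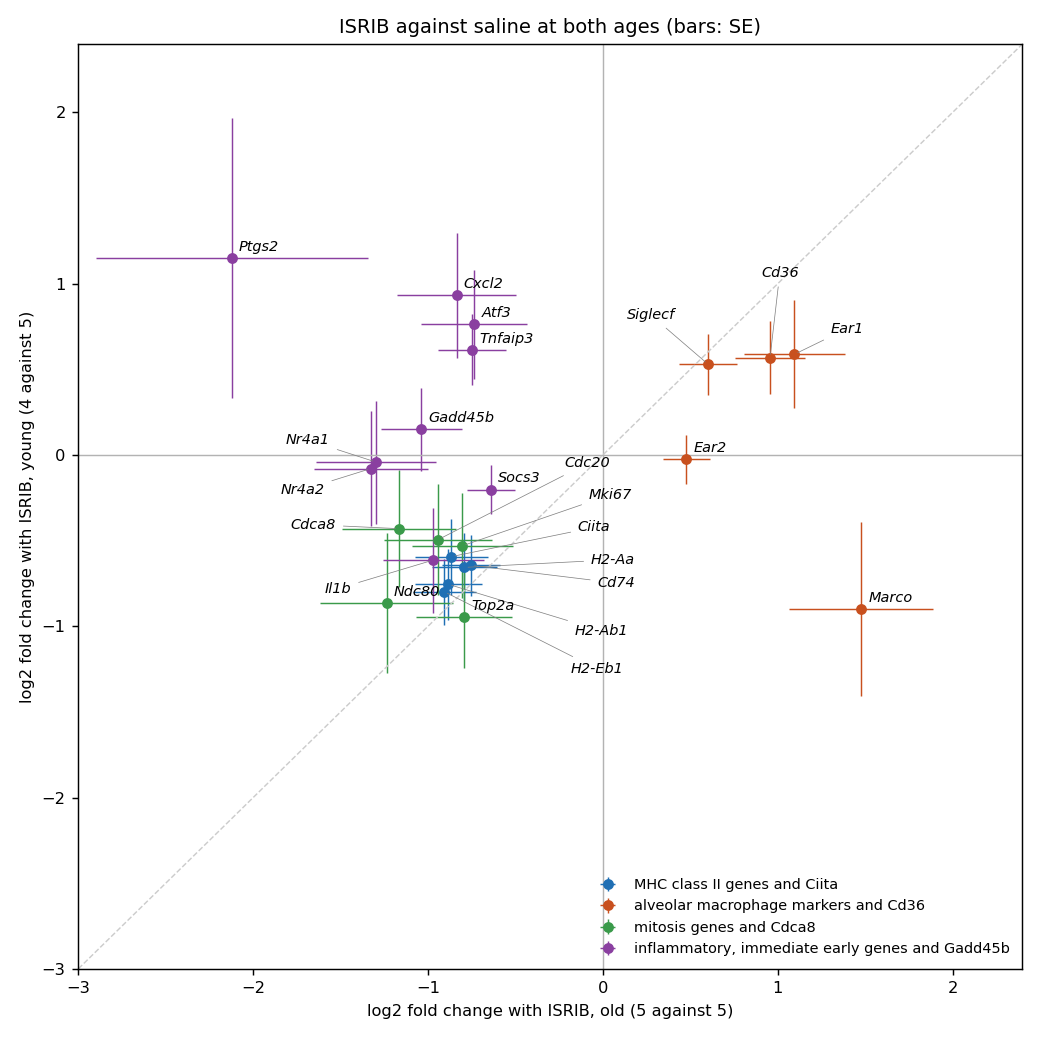
Log2 fold change of ISRIB against saline in old macrophages (horizontal axis, 5 against 5 libraries) and in young macrophages (vertical axis, 4 ISRIB against 5 saline), with SE bars, for 24 genes coloured by function. MHC class II genes and most mitosis genes lie near the dashed line of equal effects, while Tnfaip3, Atf3, Cxcl2 and Ptgs2 are below 0 in old and above 0 in young macrophages and Marco is the reverse.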

How the data were processed

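RNA from sorted lung macrophages (3 ng, polyA-selected libraries, NEBNext RNA Ultra I kit, which does not mark the strand) was sequenced. The deposited values are raw gene counts, which the authors made with bcl2fastq 2.19.1, Trimmomatic 0.36, STAR 2.6.0 and HTSeq 0.11.2 on mm10, per the submitters' processing notes; the annotation is not given in the sources used here, nor is the strand setting, so reads of overlapping or antisense genes cannot be told apart. Of 43430 gene IDs, 42462 had a symbol. Positions are GRCm38, from GENCODE by ID, and promoters are RefSeq, GRCm38.p6.

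The 19 macrophage libraries, old and young, were fitted together in edgeR 4.0.16 (R 4.3.3; TMM, filterByExpr with a minimum count of 10 and total of 15, quasi-likelihood test, Benjamini-Hochberg). DESeq2 1.42.0, limma 3.58.1 voom, other scalings and filters, other sets of libraries, a replicate block and leaving out each library in turn were alternatives. The biological coefficient of variation was 0.206. Principal components used log2 CPM with a prior count of 2 over all genes tested. The scripts were tested on simulated data.

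Gene lists (22 programmes, 13 cell type marker lists, 682 of 683 symbols matched) and the genes named were chosen with earlier results of these data known. Lists share some members, so the list counts are not separate results. Vegfa, Atf3, Nr4a1, Mrc1, Chil3 and Ctsk, for example, are each counted in more than 1 list. Named genes were 16 core genes, up to 12 per direction with an unadjusted p under 0.05, a mean of 5 CPM or more in 1 group and no overlap, the 10 with the smallest p, up to 5 per list and up to 5 called per alternative. List members outside that rule are named from their list's counts, after their values were seen. The labels do not say whether replicate numbers pair the libraries. Between groups, libraries of the same number had correlations of -0.0832 to 0.165, and the main fit used no pairing. A few single-gene values are not reported here.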

Additional observations from a re-analysis of the deposited data

Results flagged for a closer look

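In 222 groups of 5 libraries, 10 held a library whose gap to its nearest neighbour was large for the range of its group. Chance gives about 5%, and this count was no higher than that. The libraries are therefore listed as description only. Among saline libraries, Arg1 was at 268 CPM in replicate 2 (others 14.4 to 75.8) and Il1b at 310 CPM in replicate 2 (86.3 to 126). Ptgs2 was at 24.0 CPM in saline replicate 5 (7.64 to 9.24) and Hp at 602 CPM in saline replicate 4 (66.6 to 216). Cebpb was at 902 CPM in saline replicate 3 (535 to 621), and Anapc10 was low there at 6.26 CPM (9.73 to 11). Among ISRIB libraries, replicate 4 stood high in H2-Aa at 1060 CPM (725 to 788), in Ppp1r15a at 36.5 CPM (29 to 31) and in Hp at 237 CPM (22.5 to 75.3). Vegfa was at 5.76 CPM in ISRIB replicate 5 (2.55 to 3.46).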

How the results depend on the processing

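Against 0 genes called by edgeR, DESeq2 called 43, edgeR with low counts left in 220 (2419 at an unadjusted p under 0.05, and 33 for the difference between ages), and all 39 libraries 1. The replicate block, fitted on the 10 old libraries, called 109, and the same 10 libraries without it gave 0, with a lowest adjusted p of 0.0528 by edgeR. In the other group, 5 of 10 libraries correlated best with the library of their own number. How many would do so without pairing was not tested. Calls ranged from 0 to 30 with 1 library left out. Genes without overlap numbered 151, and 214 to 408 with 1 library left out, where fewer libraries overlap less by construction. The difference on the first principal component was 32.6, ranged from 28.6 to 41.9 with 1 library left out, and was 24.3 over the 1000 most variable genes. The log2 fold change of Trem2 turned to -0.000561 with the replicate block and ranged from -0.0517 to 0.119 with 1 library left out. Those of Pdgfa and Ddit3 ranged from -0.143 to 0.122 and from -0.202 to 0.0586. The cause was not tested. Of the other values, 1885 for named genes kept their side of the threshold and direction and 142 came to pass it. Medians of the mitosis, immediate early, DNA replication and profibrotic lists shrank to -0.28, -0.06, -0.09 and -0.04 with 1 library left out, and that of MHC class II genes was -0.753 under the stricter filter. Genes near 5 CPM carry large counting error.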

Other observations

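Gene groups not described above had medians near 0. Of 38 proteasome subunits, which form the main protein-degrading complex of the cytosol, 33 had a log2 fold change below 0 with a median of -0.10. The 2 under the unadjusted threshold were Psmd11, a lid subunit without overlap between the groups, at -0.24, and Psmb10, an immunoproteasome subunit, at -0.28. This share, 5.26%, was near the 5.14% of all genes, and the count was 5 without saline replicate 5, 4 without saline replicate 3 and 1 without saline replicate 4. In young macrophages 11 of these 38 subunits were lower under the unadjusted threshold, against 5.51% of all genes at that age. Of 35 lysosomal genes, 3 were lower and 1 higher under that threshold (8.57% and 2.86%, against 5.14% and 3.99% of all genes), with a median of -0.05. The count of lower genes was 8 without saline replicate 3, 6 without ISRIB replicate 4, 5 without saline replicate 5, and 1 without saline replicate 1 or 4. Galns, a sulfatase, was among the lower lysosomal genes, at -0.37. Of 22 genes of the NRF2 antioxidant response, 4 were lower and 0 higher under the unadjusted threshold, with a median of -0.08. The lower share was 18.2%, against 5.14% of all genes, and included Txnrd1, thioredoxin reductase, at -0.22. The count of lower genes was 7 without saline replicate 3 or ISRIB replicate 4 and 1 without saline replicate 2. It was 2 without saline replicate 1 or 4 or ISRIB replicate 2 or 3. Genes of sterol and fatty acid synthesis and of the LXR pathway both had a median of -0.02.

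Other genes whose libraries did not overlap between the groups were higher with ISRIB by 0.86 (Nr1d1, a repressor of the circadian clock), 0.86 (Slc12a2, an ion cotransporter), 0.77 (Tnfsf14, a cytokine of the TNF family), 0.71 (Tacc2), 0.69 (Fpgt), 0.68 (Invs), 0.67 (Tmem156), 0.64 (Erich1), 0.60 (Mkrn2), 0.58 (Fam102b) and 0.56 (Anapc10) on the log2 scale. Fam213b and Gm9821 were lower, at -0.81 and -0.79. Of these, Fam102b was called by DESeq2, at an adjusted p of 0.0394.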
